A study of Mus musculus with 28 samples.

Results

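Oxidative stress response genes encode the enzymes and carriers with which a cell detoxifies heme, peroxides and quinones. Most of them are under the control of the transcription factor NRF2 (gene Nfe2l2), which the adaptor KEAP1 marks for degradation until electrophiles or peroxides modify KEAP1. Stabilized NRF2 pairs with small MAF proteins on antioxidant response elements (AREs), a site from which BACH1 is displaced when heme accumulates. In a vein joined to an artery, blood leaking into the wall, oxygen-rich arterial flow and leukocytes with NADPH oxidase are recognized sources of such stress.

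The set described here held 10 genes chosen by name, out of 56980 genes listed in the bulk counts and 32285 in the single-cell matrices. Its members were the regulator Nfe2l2, the NRF2 activator and autophagy receptor Sqstm1, the heme-degrading Hmox1, the quinone reductase Nqo1, the cystine carrier Slc7a11, the glutathione-making pair Gclc and Gclm, and the thiol enzymes Txnrd1, Prdx1 and Srxn1. All 10 were among the 12673 bulk genes with a mean normalized count of at least 100.

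Bulk RNA sequencing covered 25 libraries of single vessels from C57BL/6 mice of both sexes. There were 7 contralateral jugular veins and 18 carotid-jugular arteriovenous fistulas (AVFs), each sampled at its outflow vein: 8 early, 5 mid and 5 late, at nominal days 3, 10 and 21 after anastomosis. Per the study's methods, harvest days spread most in the early group, and the labels give only the nominal day of each AVF. All mice, including those that gave the control veins, had undergone 5/6 nephrectomy, so no group had normal kidney function. Females numbered 5 of 7, 3 of 8, 3 of 5 and 3 of 5 in the contralateral, early, mid and late groups. Single-cell RNA sequencing covered 1 library per group (contralateral, early and late), from pools of 10 vessels of both sexes dissociated with enzymes, and per the study's methods harvested somewhat later than the bulk vessels.

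Bulk libraries held 20254173 to 67457501 counts. Contralateral veins had a count for 11958 to 18283 genes and AVFs for 17514 to 26771, with early AVFs 3, 5 and 6 the lowest of the AVFs, at 21522, 19074 and 17514. Summed mono/macro markers, all 10 counted in every library, ran from 1977 to 7623 CPM (counts-per-million) in contralateral veins, 11350 to 34880 in early, 10940 to 15060 in mid and 7366 to 15450 in late AVFs. Summed endothelial markers ran from 2255 to 3907 in contralateral veins and 325 to 813 in AVFs, and smooth muscle markers from 13700 to 28470 and 1575 to 4567. In these whole vessels, a change in the number of cells of a type and a change in RNA per cell cannot be told apart, and the part of cell makeup in the bulk results below was not tested.

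Promoter windows were examined to show which short regulatory letters the genes carry near their starts. RefSeq windows of GRCm38.p6, running from 250 bases before to 50 after a start, were held for 8 of the 10 genes; Hmox1 and Gclc had none, and Txnrd1 had 3. Both strands were searched for the ARE core TGACNNNGC, for the AP-1 element TGANTCA, which can overlap an ARE, and for TGATGNAAN, a composite element of C/EBP and ATF factors. Of 32851 windows over all genes, 12.4% held the ARE core, 7.81% the AP-1 element, 3.95% the C/EBP-ATF element and 0.454% an ARE core overlapping an AP-1 element. The stretches with matches upstream of the start are shown 5′ to 3′ on the gene's strand, with matches on either strand in capitals.
Txnrd1, second window, chr10:82859094-82859142, plus strand: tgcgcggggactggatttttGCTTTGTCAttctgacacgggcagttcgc
Prdx1, chr4:116685349-116685494, plus strand: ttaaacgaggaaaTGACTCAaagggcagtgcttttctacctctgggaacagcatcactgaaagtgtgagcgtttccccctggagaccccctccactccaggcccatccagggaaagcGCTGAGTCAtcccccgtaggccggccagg
Slc7a11, chr3:50443633-50443699, minus strand: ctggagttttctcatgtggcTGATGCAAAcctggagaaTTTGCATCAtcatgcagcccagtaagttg
Srxn1, chr2:152105402-152105505, plus strand: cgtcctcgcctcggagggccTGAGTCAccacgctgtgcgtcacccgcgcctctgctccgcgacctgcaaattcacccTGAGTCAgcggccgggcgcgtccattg
Gclm, chr3:122245403-122245451, plus strand: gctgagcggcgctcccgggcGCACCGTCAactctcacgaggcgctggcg
Nfe2l2, chr2:75704875-75704913, minus strand: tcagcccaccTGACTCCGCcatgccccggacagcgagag

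Prdx1 carried an ARE core overlapping an AP-1 element 133 to 125 bases before its start, and a separate AP-1 element farther out. Slc7a11 carried a facing pair of C/EBP-ATF letters 66 to 58 and 48 to 40 bases before its start and no ARE core. Srxn1 carried a pair of AP-1 elements upstream, and its ARE core began 29 bases after the start. Txnrd1, Gclm and Nfe2l2 each carried 1 ARE core, and the windows of Nqo1 and Sqstm1 held no match to these letters. A match describes the letters only and is not evidence of a bound site.

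The first question was how the vein's oxidative stress genes differed from those of the contralateral vein soon after anastomosis. In early AVFs, Hmox1, Slc7a11, Txnrd1 and Prdx1 rose and Nqo1 fell, 5 of the 10 genes, against 23% of all genes tested (11% higher and 12% lower). Every early AVF lay above every contralateral vein for Hmox1, Txnrd1 and Slc7a11, a separation shown by 4.47% of all genes tested. The median log2 fold change was 0.50 over the 10 genes and −0.01 over all genes. The call was an adjusted p below 0.05 in edgeR's quasi-likelihood test, with Benjamini-Hochberg adjustment over all genes tested, and levels are CPM scaled by TMM factors.

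**Figure D1:**
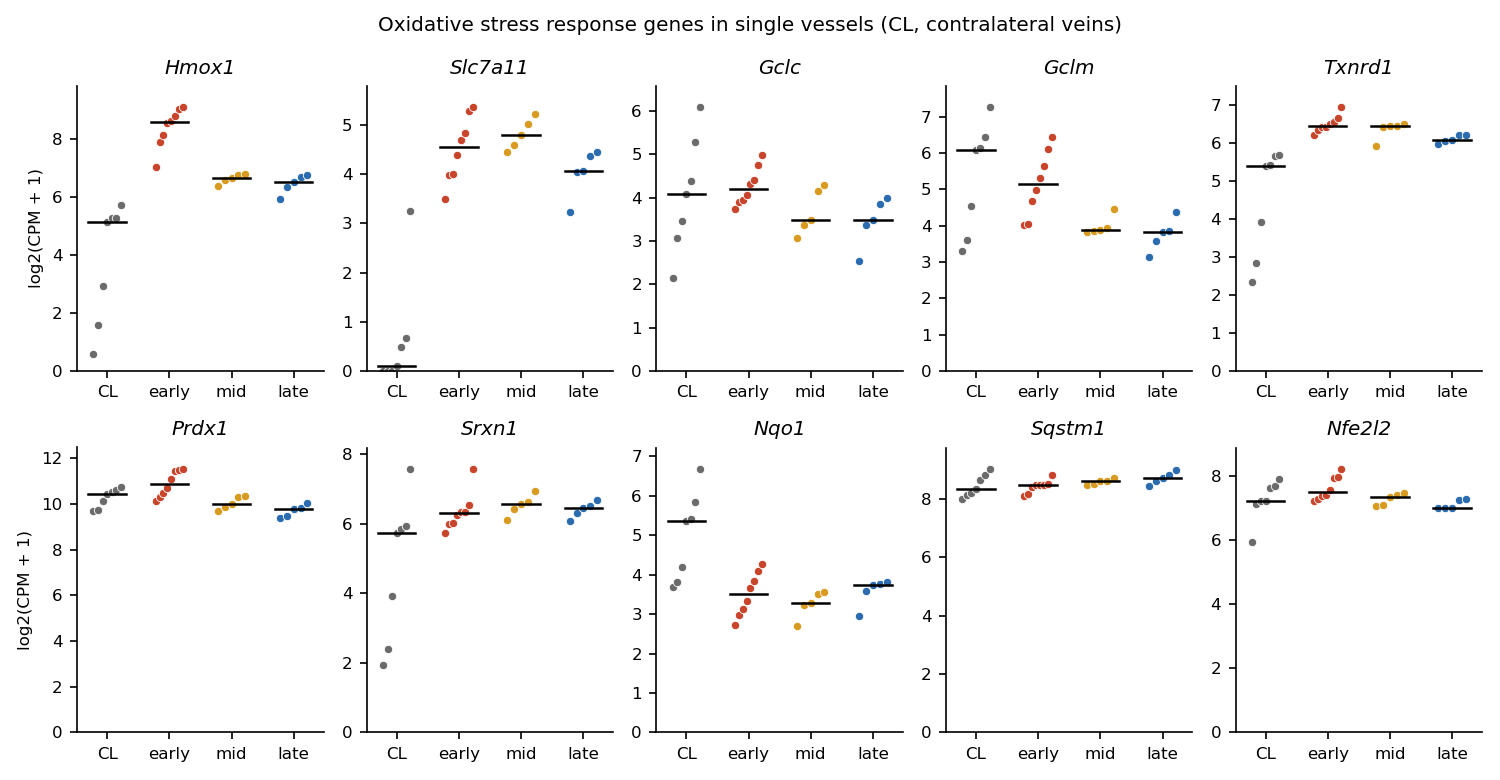
Level of each of the 10 genes in the 25 bulk libraries, as log2(CPM + 1) on the vertical axis, by group on the horizontal axis; each point is 1 vessel and the line is the group's median. Hmox1, Txnrd1 and Slc7a11 lay higher in every early and mid AVF than in every contralateral vein, whereas Nqo1 lay lower in every mid AVF.

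Hmox1 (chr8:75093621-75100589, GRCm38) encodes heme oxygenase 1, which opens the heme ring and releases iron, carbon monoxide and biliverdin. Its level in the contralateral veins was 34.0, 0.50, 52.3, 2.00, 38.1, 6.54 and 38.0 CPM in veins 27, 28, 31, 34, 35, 632 and 633. Early AVFs ran from 130 to 550 CPM with a median of 384. The 5 mid AVFs held 108, 81.8, 101, 111 and 94.8 CPM, and the 5 late AVFs 90.9, 107, 101, 60.8 and 80.1 CPM. The control veins thus spread over a wide range of low levels, and the AVFs of all 3 times lay above them with no overlap, a separation shown by 7.32% of all genes in mid and 6.25% in late AVFs.

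On the log2 scale the Hmox1 difference from contralateral veins was 3.90 ± 0.61 (SE) early (adjusted p = 3.41e-05), 2.02 ± 0.60 mid (adjusted p = 0.0276) and 1.84 ± 0.60 late (adjusted p = 0.0460). Every mid and late AVF lay below every early AVF, as did 5.2% and 8.39% of all genes tested. The fall from early to late was −2.06 ± 0.64 (adjusted p = 0.0492), and from early to mid it was −1.88 ± 0.63 without a call (adjusted p = 0.103). Hmox1 in early AVFs was the 1 difference among the 10 genes that every alternative analysis also called. Its mid difference lost the call without mid AVF 9, 13 or 14 (adjusted p up to 0.0557) and was called in 6 of the other 9 alternatives (adjusted p up to 0.301). Its late difference was called in 7 of 25 analyses that left out 1 library, and its fall from early to late in 5 of 25.

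Slc7a11 (chr3:49892526-50443614) encodes the cystine-importing subunit of system xc-, which feeds glutathione synthesis. It was listed at 0 in contralateral veins 28, 31 and 632, and at 0.395, 0.589, 8.55 and 0.069 CPM in veins 27, 34, 35 and 633. Early AVFs ran from 10.3 to 40.2 CPM with a median of 22.5. Mid AVFs held 26.7, 23.0, 21.0, 31.4 and 36.3 CPM and late AVFs 15.8, 19.8, 20.8, 8.45 and 15.5 CPM. Near-absent transcript in 6 of 7 control veins stood against a level of 8.45 CPM or more in every AVF, and the sole overlap was between vein 35 and late AVF 23.

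The log2 difference for Slc7a11 was 4.11 ± 1.05 early (adjusted p = 0.00497), 4.32 ± 1.10 mid (adjusted p = 0.00916) and 3.54 ± 1.07 late (adjusted p = 0.0304). Vein 35 set the size of these values: without it they were 6.97, 7.21 and 6.43. Leaving out late AVF 16, 17 or 19 removed the late call, and the adjusted p then reached 0.0615. Slc3a2, which encodes the partner chain of the same carrier, was lower in mid and late AVFs, at −1.12 ± 0.34 and −1.14 ± 0.34 (adjusted p = 0.029 in both).

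The genes of glutathione synthesis did not rise. Gclm (chr3:122245557-122270732), the modifier subunit of glutamate-cysteine ligase, ran from 8.86 to 153 CPM in contralateral veins with a median of 66.8, and from 15.1 to 85.2 CPM in early AVFs with a median of 34.6. Early AVFs 3, 5 and 6, low in genes detected, held the highest early values, at 48.7, 68.2 and 85.2 CPM. Mid AVFs held 13.3, 21.0, 14.2, 13.7 and 13.0 CPM and late AVFs 11, 7.84, 13.3, 13.3 and 19.6 CPM. Every mid AVF lay above control veins 27 and 633 (8.86 and 11.1 CPM) and below the other 5, while late AVFs overlapped these 2 veins and also lay below the other 5.

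The Gclm difference was −0.54 ± 0.49 early without a call (adjusted p = 0.473), −1.98 ± 0.60 mid (adjusted p = 0.0287) and −2.19 ± 0.60 late (adjusted p = 0.0176). The mid call was lost without contralateral vein 28 or mid AVF 9, 13, 14 or 15, and that in late AVFs without AVF 16 or 17, with adjusted p up to 0.0723 and 0.0665. Gclc (chr9:77754535-77794485), the catalytic subunit, ran from 3.41 to 67.3 CPM in contralateral veins, 12.3 to 30.6 early, 7.36 to 18.7 mid and 4.86 to 15.0 late. All groups overlapped, and its log2 differences of −0.28, −0.89 and −1.13 passed no test, the late one with an interval of −2.27 to 0.01.

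Nqo1 (chr8:107388225-107403206), an NADPH-dependent quinone reductase often used as the reference NRF2 target, moved opposite to Hmox1. It ran from 11.9 to 102 CPM in contralateral veins with a median of 40.1, and from 5.64 to 18.3 CPM in early AVFs with a median of 10.4. Mid AVFs held 8.81, 10.4, 5.45, 10.7 and 8.33 CPM and late AVFs 10.9, 12.3, 12.5, 6.79 and 13.0 CPM. Mid AVFs lay below every control vein, a separation shown by 4.69% of all genes tested, while early AVFs overlapped veins 31, 34 and 35 and late AVFs veins 34 and 35. The early AVFs in this overlap were 3, 5 and 6, at 16.1, 18.3 and 13.4 CPM, the libraries with the fewest genes detected among the AVFs.

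The Nqo1 difference was −1.86 ± 0.45 early (adjusted p = 0.00337), −2.21 ± 0.54 mid (adjusted p = 0.00701) and −1.86 ± 0.53 late (adjusted p = 0.0224). The early and mid calls held without any 1 library, while leaving out AVF 16, 17, 23 or 24 removed the late one (adjusted p up to 0.0605). None of these calls held with female mice alone, where fewer libraries were fitted. Those in mid and late AVFs were also lost with limma voom and a spread per group. The 3 comparisons with contralateral veins share those 7 libraries and are therefore not separate evidence of a direction.

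Among the thiol enzymes, Txnrd1 (chr10:82833951-82897712), the cytosolic thioredoxin reductase, ran from 4.08 to 50.1 CPM in contralateral veins with a median of 40.7. Early AVFs ran from 72.5 to 122 CPM with a median of 86.4. Mid AVFs held 86.3, 86.6, 84.0, 89.1 and 59.4 CPM and late AVFs 65.8, 65.4, 72.3, 61.6 and 72.2 CPM. AVFs of all 3 times lay above every control vein, as did 4.47, 7.32 and 6.25% of all genes tested early, mid and late. The late AVFs lay below every early AVF by a narrow margin (72.3 against 72.5 CPM), as did 8.39% of all genes tested.

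The Txnrd1 difference was 1.62 ± 0.39 early (adjusted p = 0.00307), 1.46 ± 0.42 mid (adjusted p = 0.0209) and 1.2 ± 0.42 late, where it missed the threshold (adjusted p = 0.0628). The mid call was lost without mid AVF 13 (adjusted p = 0.0522). The late difference was called in 4 of 25 analyses that left out 1 library. From early to late AVFs, Txnrd1 differed by −0.42 ± 0.42 without a call (adjusted p = 0.820).

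Prdx1 (chr4:116685544-116700822), an abundant peroxiredoxin that reduces peroxides at the expense of thioredoxin, ran from 828 to 1726 CPM in contralateral veins and from 1128 to 2978 CPM in early AVFs. Mid AVFs held 1286, 917, 832, 1021 and 1267 CPM and late AVFs 881, 1047, 907, 661 and 712 CPM. Early AVFs 3, 5 and 6, the libraries with the fewest genes detected among the AVFs, held the highest 3 values of all groups, at 2785, 2824 and 2978 CPM. Late AVFs lay below every early AVF, as did 8.39% of all genes tested, and the other groups overlapped.

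The Prdx1 difference was 0.67 ± 0.23 early (adjusted p = 0.0323), and −0.26 ± 0.26 mid and −0.60 ± 0.26 late without a call (adjusted p = 0.579 and 0.140). With early AVFs 3, 5 and 6 left out, the early difference was 0.21 ± 0.21 (adjusted p = 0.588). The early call was also lost without contralateral vein 27, 632 or 633, early AVF 5, mid AVF 13 or late AVF 19 or 23, with adjusted p up to 0.0822. From early AVFs, Prdx1 fell by 0.93 ± 0.25 on the log2 scale in mid (adjusted p = 0.0337) and by 1.27 ± 0.26 in late AVFs (adjusted p = 0.00402). The late fall held without any 1 library but was −0.87 ± 0.23 with early AVFs 3, 5 and 6 left out (adjusted p = 0.0633), and the mid fall was then −0.52 ± 0.23 (adjusted p = 0.740).

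Srxn1 (chr2:152105516-152111376), sulfiredoxin, restores overoxidized peroxiredoxins. It ran from 2.81 to 191 CPM in contralateral veins, 52.0 to 192 early, 67.5 to 123 mid and 67.3 to 101 late. The AVF groups were tighter than the control veins, where veins 27, 31 and 34 held 14.3 CPM or less and vein 28 held 191 CPM. Its log2 differences of 0.68, 0.78 and 0.64 passed no test. Without vein 28 they were called early and mid, at 1.48 and 1.58 (adjusted p = 0.0291 and 0.0478).

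The transcription factor itself and its activator passed no test at any time. Nfe2l2 (chr2:75675513-75704641) ran from 60.8 to 239 CPM in contralateral veins, 149 to 300 early, 133 to 175 mid and 127 to 157 late. Its highest early values, at 247, 300 and 250 CPM, were those of early AVFs 3, 5 and 6. Sqstm1 (chr11:50199366-50210827), which encodes the receptor p62 that traps KEAP1, ran from 258 to 528, 278 to 453, 360 to 426 and 347 to 509 CPM. The groups overlapped in both genes. The early difference was 0.32 for Nfe2l2 (95% interval −0.11 to 0.76) and −0.06 for Sqstm1 (−0.38 to 0.27), and the late one −0.24 (−0.73 to 0.26) and 0.22 (−0.14 to 0.59), none with a call.

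**Figure D2:**
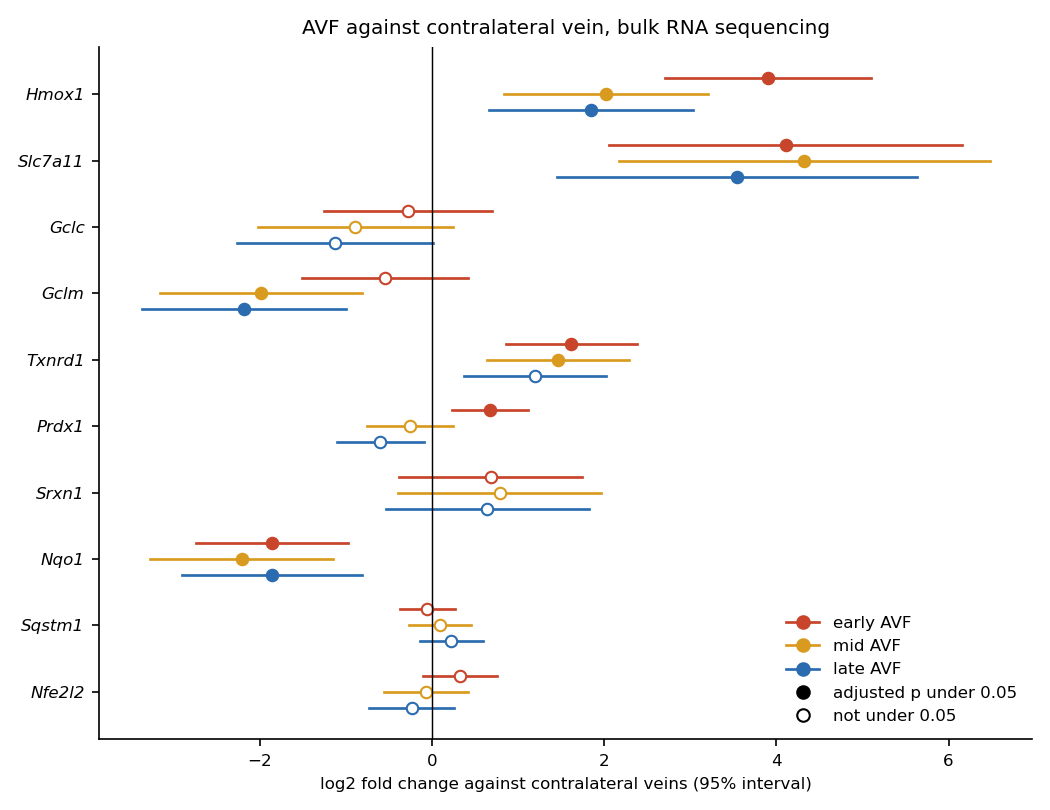
Log2 fold changes of the 10 genes (horizontal axis) for early, mid and late AVFs against contralateral veins, with 95% intervals as bars and filled points where the adjusted p was below 0.05. Hmox1, Slc7a11 and Txnrd1 lay to the right of 0 and Nqo1 to the left at all 3 times after anastomosis.

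In mid AVFs 5 of the 10 genes were called, 3 higher and 2 lower, against 12.4% of all genes (5.11% higher and 7.25% lower). In late AVFs 4 were called, 2 higher and 2 lower, against 11.5% (4.82% higher and 6.66% lower). The median difference over the 10 genes was 0.01 mid and −0.01 late, beside −0.10 and −0.09 over all genes. From early to mid AVFs 1 gene fell and none rose, with 4.23% of all genes called (3.55% lower), and from early to late AVFs 2 fell, with 7.08% called (5.1% lower). Under a stricter rule, which asked for an adjusted p below 0.01 with a log2 fold change of 1 or more in either direction, the counts were 4 of 10 early, 2 mid and 0 late against 12.6, 6.05 and 5.33% of all genes, 0 from early to mid against 0.00789%, and 1 from early to late against 3.01%. Between mid and late AVFs edgeR called 0 of the 10 genes, against 0% of all genes tested. None of the 10 had an unadjusted p below 0.05 there and DESeq2 called none of them, while limma voom with a spread per group called Slc7a11.

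Scaled to exon length, Prdx1 was the most abundant transcript in contralateral veins, at 419 CPM per kb, followed by Sqstm1 at 109 and Nfe2l2 at 42.8. Nqo1 at 26.0, Srxn1 at 19.3 and Hmox1 at 14.0 came next, and their spreads overlapped. Gclm at 9.45, Gclc at 6.15 and Txnrd1 at 4.15 followed, and Slc7a11 was last at 0.0986 CPM per kb. In early AVFs Hmox1 was second, at 209 CPM per kb beside 667 for Prdx1 and 104 for Sqstm1, while Nqo1 at 7.15 lay near Gclm at 6.48. In late AVFs Hmox1 at 50.3 CPM per kb stood after Prdx1 at 277 and Sqstm1 at 127.

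Within groups, over the 25 bulk libraries and after removal of each group's mean, the most alike pair of the 10 genes was Hmox1 and Txnrd1 (r = 0.72), followed by Prdx1 and Gclm (r = 0.65), while Txnrd1 and Gclm were opposed (r = −0.51). These libraries share scaling and cell makeup, and the values are descriptive. Contralateral veins spread the most, with a coefficient of variation of 85.6% for Hmox1 and 69.5% for Txnrd1, beside 39.3 and 16.7% early. They can therefore weigh most in the value for that pair, and r was not computed within single groups. Among all genes tested, the closest to Hmox1 were Ciao1 (r = 0.96) and Gng2 and Dimt1 (r = 0.95 each). The closest gene was Galt for Txnrd1 (r = 0.97), Hsbp1 for Prdx1 (r = 0.89), Ptpn7 for Slc7a11 (r = 0.92), Lamp1 for Gclm (r = 0.94) and Stab1 for Nfe2l2 (r = 0.91).

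The genes that surround this set in the pathway were read from lists chosen by function. The counts of each list stand beside all genes tested, of which 11% were higher and 12% lower in early, 5.11 and 7.25% in mid, and 4.82 and 6.66% in late AVFs. Of 105 calls among the listed genes over all comparisons, 55 held without any 1 library. Of the NRF2 regulators, 7 of 8 were tested and 0 rose at any time against contralateral veins. Keap1, the NRF2 anchor, stood at a mean of 20.4 CPM in contralateral veins and 22.3, 28.8 and 32.5 CPM early, mid and late, and Bach1, the heme-sensitive repressor of Hmox1, at 44.2, 60.5, 46.9 and 36.9 CPM, without a call. Nfe2l1, a relative of Nfe2l2 that controls proteasome genes, was lower in early AVFs at −0.96 ± 0.25 (adjusted p = 0.0064) and rose from early to late by 1.27 ± 0.27 (adjusted p = 0.00504). Rbx1, a subunit of the ubiquitin ligase that KEAP1 serves, was lower in mid and late AVFs, at −1.0 and −1.03.

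Of 10 tested heme and iron genes, 4 rose and 0 fell in early AVFs, with a median of 0.52. Hp, the hemoglobin scavenger haptoglobin, rose by 2.95 ± 0.59, the ferritin light chain Ftl1 by 2.19 ± 0.31, the heavy chain Fth1 by 1.11 ± 0.24, and Blvrb, a biliverdin reductase, rose as well. In late AVFs the list's median was −0.07, and Hp, Ftl1 and Blvrb had fallen from early by 2.14, 1.55 and 1.24. With early AVFs 3, 5 and 6 left out, the early values of Ftl1 and Fth1 were 1.38 and 0.58. Cd163, the macrophage receptor for hemoglobin-haptoglobin, was lower in mid AVFs, from a mean of 101 to 25.9 CPM (adjusted p = 0.022).

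Of 17 glutathione genes, 3 rose and 4 fell in early AVFs, 0 and 5 in mid, and 1 and 5 in late AVFs, beside the shares of all genes given above. Gstm1, a glutathione transferase, went from a mean of 1968 ± 742 CPM (SD) in contralateral veins to 159 ± 31.2 early, 248 ± 25.2 mid and 429 ± 83.8 late, a log2 difference of −3.63 ± 0.22 early (adjusted p = 1.04e-11). Gstm2 fell with it, by 2.14 early, and Gstt1 by 2.52 mid. Mgst1, a microsomal glutathione transferase, was lower at all 3 times, at −1.12, −1.93 and −1.90. Abcc1, an exporter of glutathione conjugates, was higher at 1.45 early and 1.6 late, the late value being called in 5 of 25 analyses that left out 1 library. Gpx1, the major glutathione peroxidase, rose by 1.83 ± 0.37 early, a value that was 0.58 with early AVFs 3, 5 and 6 left out. From early AVFs, Gpx1 fell by 1.80 mid and 2.09 late, Mgst3 by 1.41 and Gstp1 by 1.17 mid, and glutathione reductase (Gsr) by 2.01 late.

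Of 10 thioredoxin and peroxiredoxin genes outside the set, 3 rose in early AVFs (Prdx5 by 1.79, Txn1 by 1.21 and Prdx2 by 0.76), and 0 rose later. Txnip, which binds and inhibits thioredoxin, fell at all 3 times, at −1.15, −1.10 and −0.79. Without early AVFs 3, 5 and 6 the early values of Prdx5, Txn1 and Prdx2 were 0.91, 0.25 and 0.28. From early to mid AVFs 4 of these 10 genes fell, among them Txn1 by 1.87, Prdx5 by 1.80 and Prdx6 by 1.11.

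Of 6 genes for NADPH supply, 1 rose and 2 fell in early AVFs, and 0 rose and 2 fell in both mid and late AVFs. Pgd, an NADPH-forming enzyme of the pentose phosphate pathway, rose by 1.2 ± 0.24 early (adjusted p = 0.000554). Tkt, the transketolase of that pathway, was lower at −0.85, −1.02 and −0.94. Me1, the cytosolic malic enzyme, was lower at all 3 times, from a mean of 355 CPM to 35.8, 30.5 and 34.5. Summed adipocyte markers, which can carry Me1, ran from 1167 to 8603 CPM in contralateral veins, 8.01 to 5870 early, 874 to 1525 mid and 498 to 1312 late. Of 4 genes for superoxide and peroxide removal, catalase (Cat) was lower early at −1.09, and Sod1 was lower mid and late at −1.90 and −1.79. Mitochondrial Sod2 fell from early AVFs by 1.27 mid and 1.37 late.

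On the producing side, 6 of 8 genes for NADPH oxidase and xanthine oxidase rose in early AVFs, with a list median of 2.07, followed by 3 in mid and 2 in late AVFs. Ncf4 rose by 4.01 ± 0.74, Rac2 by 3.08 ± 0.55 and Cyba by 2.25 ± 0.33, all parts of the phagocyte oxidase. Its membrane subunit Cybb was higher at 2.19, 2.14 and 1.73, the late value being called in 6 of 25 analyses that left out 1 library. Nox4, the vessel wall oxidase, fell by 1.32 early and Xdh by 1.09. The Nox4 call was lost without any 1 of contralateral veins 27 and 28 and early AVFs 3, 5, 6 and 7, with a value of −0.62 without vein 28. The Xdh call was lost without any 1 of contralateral veins 28 and 34 and early AVFs 1, 2, 3, 5, 6 and 7, with a value of −0.72 without vein 28.

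Of 8 genes of the ATF4 program, 1 rose and 0 fell early, and 1 rose and 1 fell in both mid and late AVFs, with list medians of 0.43, −0.37 and −0.32. The gene that rose was the amino acid carrier Slc7a5, at 4.00, 3.38 and 3.48, and the one that fell was Slc3a2, described above. Autophagy receptors and LC3 relatives of Sqstm1 showed 0 of 7 higher and 2 lower early (Gabarapl1 and Tax1bp1), with a list median of −0.68. In mid and late AVFs Gabarapl2 alone of these 7 was called, lower at −0.84 and −0.82.

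**Figure D3:**
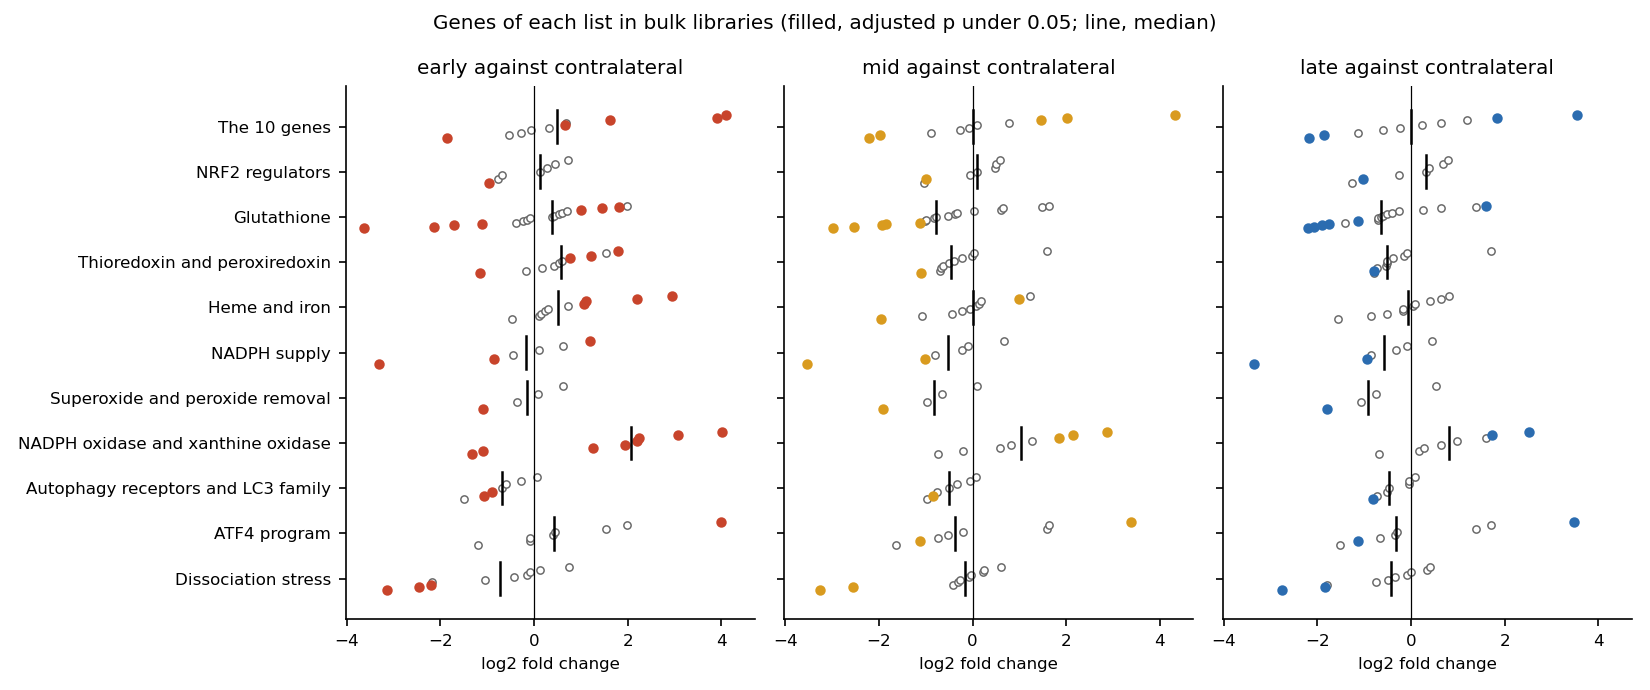
Log2 fold changes of every gene of the pathway lists (horizontal axis) by list, for early, mid and late AVFs against contralateral veins, with called genes filled and the list's median as a line. Genes of NADPH oxidase lay mostly to the right of 0 in early AVFs, and the glutathione list held its farthest gene, Gstm1, to the left.

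The second question was which cells carried these transcripts. After filters, 16893 of 26438 barcodes were kept: 6319, 4753 and 5821 of the contralateral, early and late library, with medians of 2751, 8951 and 15425 UMIs. The upper limit of 6000 genes was passed by 26, 841 and 588 barcodes, which were left out. Median UMIs were 4287, 31702 and 25120 in fibroblasts and 3064, 12966 and 13909 in mono/macros. The effect of this limit and of depth on the ratios below was not tested. The libraries shared 14 to 19 barcodes by pair. With 1 library per group no test was possible: levels are a gene's UMIs scaled to counts-per-million (CPM) of all UMIs of the cell class, and ratios carry 95% Poisson intervals that cover counting error only. Free RNA in droplets can add UMIs to any class and was not estimated here. T cells, which should hold little Hmox1, had it at 34.1, 64.5 and 181 CPM, beside 582, 993 and 1363 CPM over all kept cells, and levels near those of T cells are not read as expression. The clusters were built without the 10 genes, so that their levels did not shape the classes.

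Hmox1 came mainly from mono/macros, which gave 64.3, 80.0 and 54.8% of its UMIs in contralateral, early and late libraries, from 13.1, 56.1 and 27.4% of all UMIs. Its level in the mono/macros was 2868, 1416 and 2726 CPM, so that early AVFs stood at 0.494 (0.484 to 0.504) of the contralateral level and late AVFs at 0.95 (0.932 to 0.970). Over all kept cells of the library, in contrast, Hmox1 was 1.71 times higher early and 2.34 times higher late. There the late library stood at 1.37 times the early one (1.36 to 1.39). Bulk Hmox1 went the other way, at −2.06 on the log2 scale from early to late. Sqstm1 over all kept cells was 2.81 times the contralateral level early and 4.96 times late, while in bulk it passed no test. What sets the assays apart here was not tested. The number of mono/macros among kept cells was 775, 2213 and 1755.

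Mono/macros of the contralateral library came mostly from 1 cluster (641 of 775 cells), led by Mrc1, F13a1 and Cd163. Those of early and late AVFs came from a cluster led by Il1b and Cd14 (1617 and 1022 cells) and another led by Lyz2 and C1qb (569 and 714 cells). These ratios therefore set cells of different clusters side by side. The sum of 10 genes known to be induced by tissue dissociation moved the same way as Hmox1 in this class, at 36547, 17363 and 31631 CPM. Its part in the single-cell levels was not tested.

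Of the other genes, 6 were higher in the mono/macros of both AVF libraries beyond counting error. Slc7a11 went from 46.2 to 356 early and 355 late, 7.72 times higher early (6.65 to 9.01), and Prdx1 from 724 to 1526 and 2056. Gclm was 2.35 times higher early (2.00 to 2.77) and 2.85 times late (2.43 to 3.36), Txnrd1 1.67 and 2.54 times, Sqstm1 1.45 and 3.09 times, and Nfe2l2 1.75 and 1.90 times. Srxn1 was 1.06 times the contralateral level early (0.958 to 1.18) and 2.54 times late (2.30 to 2.81). Gclc stood at 0.462 early and 0.890 late. Nqo1 was nearly undetected, with 2, 42 and 50 UMIs in the whole class. At a 2-fold limit, 4 of the 10 genes were higher and 2 lower in early mono/macros, and 7 were higher and 0 lower in late ones. Of all genes with at least 20 UMIs in the class over the libraries compared, 8.95% were as much higher and 25.7% lower early, and 8.59% higher and 26.3% lower late. The intervals of Nqo1, counted as higher at both times, included 1.

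**Figure D4:**
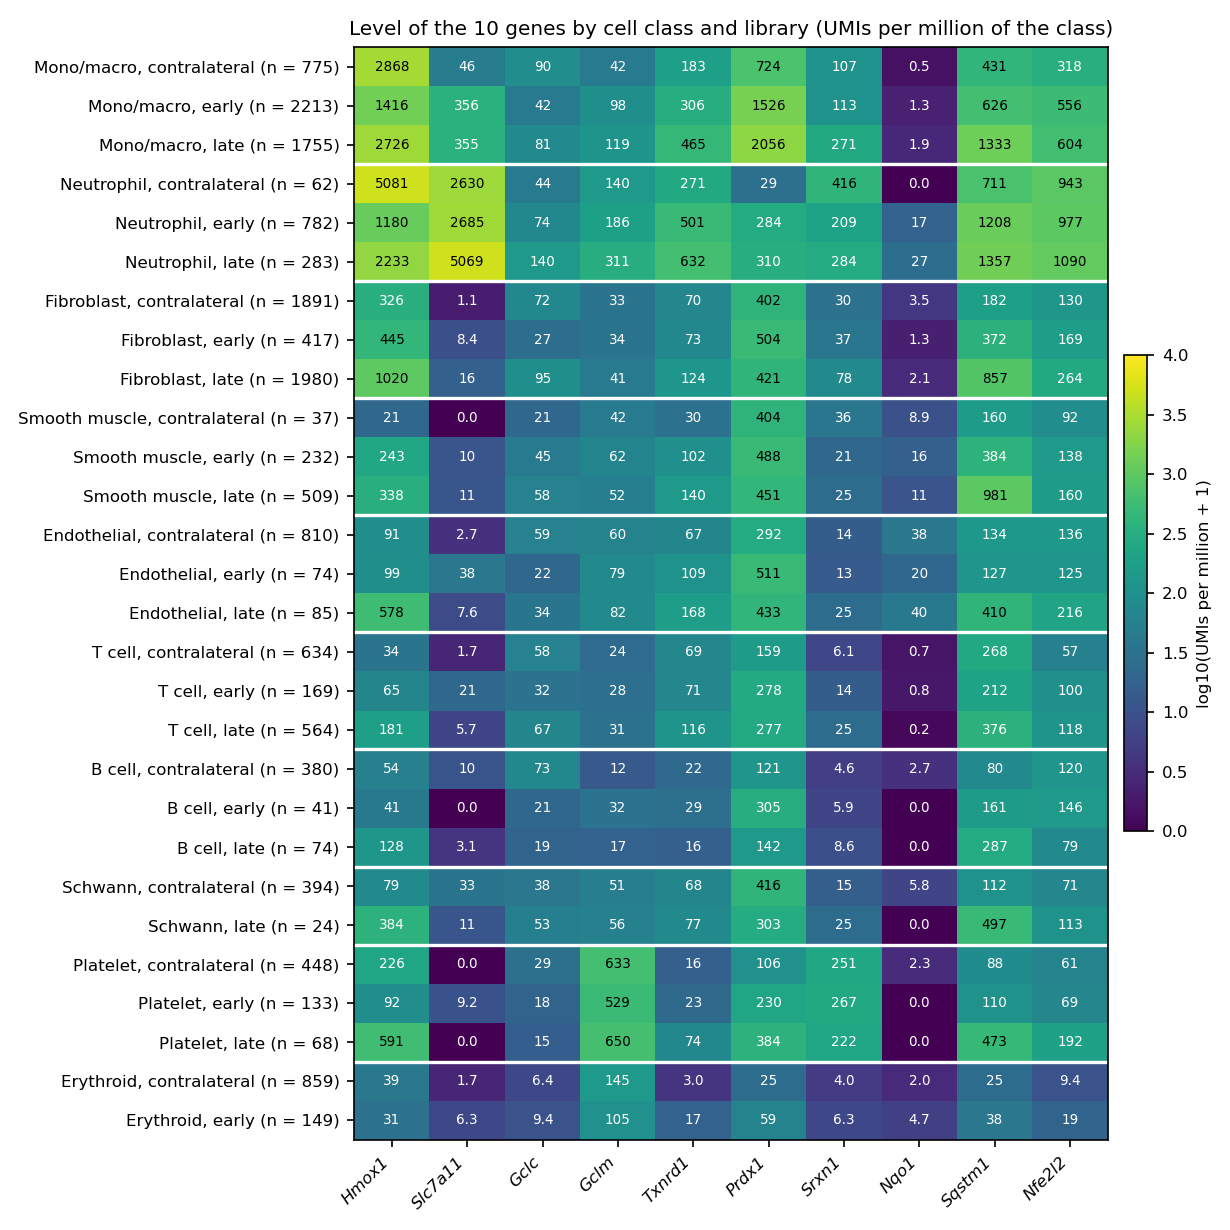
Level of the 10 genes in each cell class (UMIs scaled to CPM of the class, colour on a log scale) for the contralateral, early and late libraries. Hmox1 was highest in mono/macros and, in the contralateral library, neutrophils, Slc7a11 in neutrophils, Nqo1 in endothelial cells, and Gclm in platelets.

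Slc7a11 was highest in neutrophils. Its level there was 2630, 2685 and 5069 CPM in 62, 782 and 283 cells, and T cells of the same libraries held 1.7, 21.2 and 5.7. Neutrophils gave 67.2, 43.2 and 32.3% of the gene's UMIs and mono/macros 21.8, 55.3 and 61.1%. In the early library the neutrophil level was 1.02 times the contralateral one (0.936 to 1.12), while the library as a whole was 13.1 times higher. Bulk neutrophil markers, with Ly6g at 0 in every contralateral vein, summed to 4.69 to 178 CPM there and 245 to 4455 CPM in early AVFs. Hmox1 in neutrophils was 5081, 1180 and 2233 CPM.

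Nqo1, whose bulk level fell, came mostly from endothelial cells in the contralateral library. Endothelial cells gave 62.0% of its UMIs in the contralateral library at 38.3 CPM, and 6.3 and 6.1% in the early and late libraries at 20.4 and 40.1 CPM. Endothelial cells numbered 810, 74 and 85 among kept cells. Within them, the late level was 1.05 times the contralateral one (0.624 to 1.68) and the early level 0.532 (0.282 to 0.929). Smooth muscle cells gave 35.0 and 39.0% of Nqo1 UMIs in the early and late libraries, and neutrophils 24.7 and 7.85%. Bulk endothelial markers, as given above, were lower in every AVF than in every control vein.

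Gclm, which also fell in bulk, was highest in platelets, at 633, 529 and 650 CPM, and erythroid cells held 145 and 105 CPM in the contralateral and early libraries. These 2 classes gave 16.7 and 25.6% of Gclm UMIs in the contralateral library, beside 25.8% from fibroblasts, and 0.7% and 0.0% in the late library. Over all kept cells, however, Gclm was not lower in AVFs. It stood at 1.48 times the contralateral level early (1.40 to 1.56) and 1.16 times late (1.10 to 1.23), unlike in bulk. Bulk erythroid markers summed to 3432 to 17600 CPM in contralateral veins, 1269 to 18480 early, 1010 to 4920 mid and 412 to 1505 late. Bulk platelet markers summed to a median of 45.2 CPM in contralateral veins (0.125 to 190) and 177 CPM in late AVFs (104 to 496). Only 1 of these 5 markers had counts in every contralateral vein. The part of either class in the bulk Gclm level was not tested.

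Fibroblasts showed higher Hmox1 and Sqstm1 in the late library. Hmox1 stood at 326, 445 and 1020 CPM and Sqstm1 at 182, 372 and 857, and the late level was 3.13 (3.03 to 3.23) and 4.72 (4.53 to 4.92) times the contralateral one. Slc7a11 was 14.8 times higher late (8.76 to 27.2) from only 14 UMIs in contralateral cells, Srxn1 2.6 times and Nfe2l2 2.03 times. Prdx1 differed little, at 1.25 early and 1.05 late, Gclc was 0.371 early and 1.32 late, and Nqo1 0.371 early (0.192 to 0.679). In all, 2 of 10 genes were at least 2-fold higher and 2 lower early, and 5 higher and 0 lower late. Slc7a11 is counted among the higher genes at both times. The shares over all genes, by the same rule, were 9.72% higher and 17.5% lower early, and 7.69% higher and 17.4% lower late.

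Contralateral fibroblasts came mostly from a cluster led by Inmt and Sfrp2 (1762 of 1891 cells) and those of AVFs from a cluster led by Ptx3 and Dcn (413 of 417 and 1946 of 1980 cells). The dissociation genes summed to 21333, 24264 and 45483 CPM in fibroblasts and 23940, 24738 and 46499 in smooth muscle cells. In bulk vessels, which were not dissociated, 0 of these 10 genes rose in AVFs. Hspa1a was lower at all 3 times (−3.15, −3.26 and −2.75), as was Hspa1b (−2.46, −2.55 and −1.84), and Egr1 was lower early at −2.20, which became −1.35 without contralateral vein 632 (adjusted p = 0.167) and was called in 17 of 25 analyses that left out 1 library. Hsp90aa1 fell from a mean of 297 CPM in early to 140.0 CPM in late AVFs (adjusted p = 0.0355), and bulk Sqstm1 passed no test. Smooth muscle cells held Sqstm1 at 160, 384 and 981 CPM and Hmox1 at 20.8, 243 and 338, the contralateral values resting on 37 cells and that of Hmox1 lying below T cells.

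When the mono/macros were clustered again, the highest Hmox1 among subclusters with over 100 cells in a library was in late AVFs. This subcluster (M5, 420 late cells), led by Slc5a3, Bag3, Jun, Hsph1 and Hspa1b and left unnamed, held Hmox1 at 5355 CPM with Slc7a11 at 14.2, Prdx1 at 386 and Srxn1 at 38.5. Another late subcluster (M3, 498 late cells), led by Srxn1, Oasl1, Ifnb1, Ifit1 and Il10 and also unnamed, held Srxn1 at 536, Txnrd1 at 755, Prdx1 at 3102, Sqstm1 at 1995 and Hmox1 at 3375. The 23 contralateral cells of M3 held more Hmox1 still, at 8900.5 CPM. Jun, Dnajb1 and Hspa1b, all among the 10 leading genes of M5, belong to the dissociation genes.

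Among named subclusters, the inflammatory-like M2 (349 early and 244 late cells, led by Arg1 and Spp1) held high Prdx1, at 3592 and 3908, with Slc7a11 at 755 and 687. The inflammatory-like M1 (597 early and 59 late cells) was also led by Arg1 and Spp1, and the levels of M2 do not describe it. The monocyte-like M0 held Slc7a11 at 622 and 705. Resident-like macrophages of the contralateral library (M7, 314 cells) held Hmox1 at 2896 but Slc7a11 at only 0.9 CPM, and the Lyve1- and Cd163-bearing early subcluster M4 (445 cells) held Hmox1 at 2059 and Slc7a11 at 26.2. Slc7a11 and Hmox1 were thus highest in different subclusters.

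**Figure D5:**
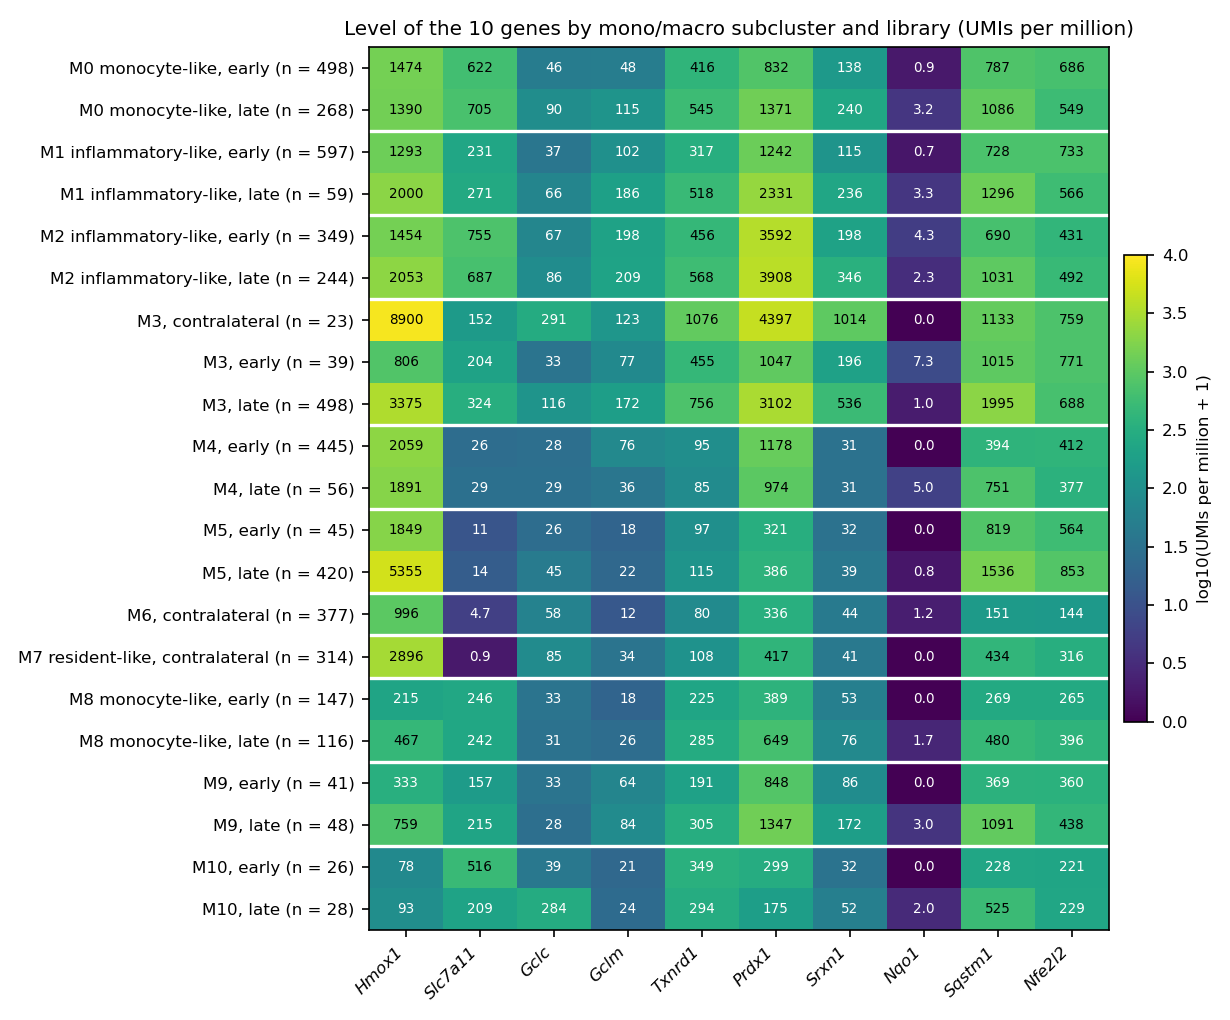
Level of the 10 genes (UMIs scaled to CPM of the subcluster, colour on a log scale) in the mono/macro subclusters M0 to M10 by library. Hmox1 was high in the late cells of M5, where Slc7a11, Srxn1 and Txnrd1 were low, and Prdx1 was high in M2 and M3.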

How the data were processed

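Bulk RNA sequencing of 25 single vessels and single-cell RNA sequencing of 3 pools were used as deposited. The authors deposited bulk read counts per gene without normalization, and UMI counts per gene and barcode from Cell Ranger 6.0.2 (per the file headers), limited to called cells. Per the labels, the submitters' processing notes name STAR and Cell Ranger and the builds mm10 and GRCm38; the counting tool of the bulk table is not given in the sources used here. Whether counting used strand is likewise not given. Samples were grouped by their labels, and where nothing says more, bulk libraries were taken as separate animals. For single cells, the study's methods list fewer mice than pooled vessels, so the control and AVF pools share mice.

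Bulk genes were named from the single-cell gene list (32210) or a reference table (19962), with 4808 left without a symbol; lengths and positions are from a GRCm38 annotation. Genes whose DESeq2-normalized counts averaged 100 or more were fitted in edgeR 4.0.16 (TMM, 1 mean per group, quasi-likelihood F test, two-sided, in R 4.3.3), with p-values adjusted over all 12673 genes by Benjamini-Hochberg. The biological coefficient of variation was 0.843, and library depth of 20254173 to 67457501 counts bounds the precision of low genes. The script was tested on simulated data. Alternatives used DESeq2 1.42.0 and limma 3.58.1, other filters and scaling, sex as a term, a stricter threshold and the omission of each library. The 3 alternatives without early AVFs 3, 5 and 6, with female mice alone and with voom were chosen after seeing the data.

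Barcodes were kept between 200 and 6000 genes and up to 10% mitochondrial UMIs, then clustered in scanpy 1.11.5 (2000 variable genes without the set, the pathway lists and the markers, 12 components, 20 neighbors, Leiden resolution 0.5) and named from marker lists. The limit of 20 UMIs for shares over all genes was chosen after seeing the data. The naming rule was made stricter after cluster names were seen, which left 1 cluster of 1031 cells unnamed. Scrublet marked 1, 0 and 80 kept cells and had not worked in the first 2 libraries, so doublets remain. Promoter windows and their letters are from RefSeq (GRCm38.p6).

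All 10 genes are named. From each other list, up to 3 genes per comparison with the largest absolute log2 fold change among those called are named, plus genes called in opposite directions between time points and a few chosen after their values were seen (Keap1, Bach1, Abcc1, Xdh, Nox4). The 10 genes and the lists were chosen with earlier results of these data known.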

Additional observations from a re-analysis of the deposited data

Results flagged for a closer look

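Within groups of 4 to 10 libraries, 5 single values stood apart from the rest of their group by Dixon's criterion, of 40 groups tested; chance gives about 1 in 20. Slc7a11 in contralateral vein 35 was 8.55 CPM, with the next at 0.589. Srxn1 in contralateral vein 28 was 191 CPM, with the next at 59.9, and Srxn1 in early AVF 7 was 192 CPM, with the next at 91.4. Txnrd1 in mid AVF 15 was 59.4 CPM, below the next at 84.0, and Gclm in mid AVF 12 was 21.0 CPM, above the next at 14.2.

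Because the comparisons with contralateral veins share their controls, the change between time points was tested directly. Hmox1 differed between late and early AVFs by −2.06 on the log2 scale, Prdx1 between mid and early AVFs by −0.93, and Prdx1 between late and early AVFs by −1.27, each past the threshold of edgeR's quasi-likelihood test with Benjamini-Hochberg adjustment.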

How the results depend on the processing

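No result among the 10 genes reversed its direction in any alternative that called it. Of 17 calls, 7 held without any 1 library and 1, Hmox1 early against contralateral, in all 34 alternatives. With 1 library left out, the number of the 10 genes called ranged from 4 to 6 early against contralateral (5 with all libraries), from 2 to 5 mid (2 without mid AVF 13, 3 without mid AVF 9 or 14), from 0 to 5 late (0 without late AVF 16 or 17, 2 without late AVF 19, 23 or 24), from 0 to 2 mid against early, from 1 to 3 late against early, and was 0 late against mid. Under the stricter threshold the counts were 2 mid, 0 late, 0 mid against early and 1 late against early. With female mice alone they were 1 early, 0 mid, 0 late, 0 mid against early and 0 late against early. With limma voom and a spread per group, which gave contralateral libraries a weight of 0.147 and mid libraries 4.76, they were 2 early, 0 mid, 0 late, 3 mid against early, 5 late against early and 1 late against mid. With early AVFs 3, 5 and 6 left out they were 0 mid against early and 0 late against early. For mid against early (1 called), DESeq2 called 2, filterByExpr 0 and no filter 0. For late against early (2 called), DESeq2 size factors in edgeR gave 1, filterByExpr 1, no filter 1 and sex as a term 1. For the smaller sets of females and omitted libraries fewer samples were fitted, and otherwise the cause was not tested. Apart from the stricter threshold, the share of all genes called under each alternative is not given here. These counts therefore cannot tell a shift of the 10 genes from a general shift in calls. In fibroblasts at a clustering resolution of 1.0, 1 gene was at least 2-fold higher early (2 in the report) and 3 late (5 in the report). No paired analysis was possible because contralateral and AVF libraries share no replicate number. Low genes such as Slc7a11 in contralateral veins are limited by few reads.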

Other observations

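UMIs of the set were also counted in other classes. Srxn1 in platelets was 251, 267 and 222 CPM of the class in the contralateral, early and late libraries. Endothelial cells held Hmox1 at 91.1, 98.9 and 578, the late value resting on 85 cells, with dissociation genes at 10108, 5184 and 24867.

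Txnip, the thioredoxin inhibitor that was lower in bulk AVFs, stood in mono/macros at 1043, 123 and 119 CPM and in fibroblasts at 538, 92.1 and 230, but in neutrophils at 363, 731 and 847. Gstm1 stood in fibroblasts at 616, 68.2 and 325, and in smooth muscle cells at 564, 432 and 380. Hp stood in fibroblasts at 2.15, 956 and 608 CPM. Each value is from 1 library and has no test.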
